A study of Rattus norvegicus with 12 samples.

Results

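Zbp1 and 9 further genes of pyroptosis and necroptosis were followed by RNA sequencing in cultured cardiac fibroblasts of neonatal rats. The genes were chosen by symbol: Zbp1, Ripk1, Ripk3, Mlkl, Casp1, Casp4, Casp8, Casp12, Gsdmd and Nlrp3. Of these 10 genes, 9 were found among the 12271 genes of the normalized table, and Mlkl was not analysed here. All 9 passed the filter on low values, a mean of at least 10 normalized counts over the 12 libraries, together with 11871 genes in all.

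Fibroblasts came from the heart ventricles of Sprague Dawley pups at postnatal day 2 and were grown in primary culture. They received a universal negative siRNA, a pair of siRNAs targeting Yap, a pair targeting Wwtr1, or those for both genes. The labels place collection 48 hours after transfection, whereas the methods of the study count these hours from a later change of medium. An siRNA lowers the messenger RNA it matches, and each was used at 25 nM. Yap (gene symbol Yap1) and Wwtr1 (also named Taz) are transcriptional coactivators of the Hippo pathway. Each of the 4 groups had 3 libraries, which the study describes as separate litters. Knockdown was transient, and the siRNA label of the double knockdown libraries lists only the Wwtr1 siRNAs although their titles name both genes. The series design text speaks of myocytes, whereas the titles and labels speak of fibroblasts.

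Pyroptosis and necroptosis are forms of lytic cell death that release inflammatory contents. In pyroptosis an inflammasome sensor such as Nlrp3 activates Casp1, or bacterial lipid activates Casp4, and the caspase then cleaves Gsdmd, whose fragment opens pores in the plasma membrane. In necroptosis the kinases Ripk1 and Ripk3 assemble and Ripk3 activates the membrane-lytic effector Mlkl, while Casp8 cuts the kinases and holds necroptosis back. Zbp1 is a sensor of left-handed nucleic acids that binds Ripk3 and can feed both pathways, and it is known as an interferon-induced gene. RNA levels, which were measured here, do not report cleavage, phosphorylation or death.

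All values are normalized counts, which the authors scaled with DESeq2. Levels are compared between groups and not between genes. A gene is called changed when its limma adjusted p, taken over all 11871 genes, was under 0.05, and log2 fold changes are on the log2(normalized count + 1) scale.

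Because Zbp1 is interferon-induced, the promoters were searched for the core of the interferon-stimulated response element, which is GAAA, any 2 bases and GAAA again, and for the gamma-activated site, TTCNNNGAA, on both strands. Promoter windows of 250 bases before to 50 after the start were taken from RefSeq (GRCr8), and 5 of the 9 genes with values had an entry (Ripk1, Ripk3, Casp1, Casp12 and Nlrp3). Zbp1, Casp4, Casp8 and Gsdmd had none, so Zbp1 itself was not searched. The response element core was found in Casp1 and Casp12 and in 3.92% of all 33469 promoters. Neither of these genes was called against negative siRNA with all libraries. Both windows are shown because they hold the identical 10 letters close to the start of neighbouring inflammatory caspase genes. Capitals mark the match, which reads TTTCAGTTTC on the gene's strand and lies 28 to 19 bases before the start of Casp1 (chr8:10872580-10872879, plus strand) and 38 to 29 bases before that of Casp12 (chr8:10926938-10927237, plus strand).
Casp1: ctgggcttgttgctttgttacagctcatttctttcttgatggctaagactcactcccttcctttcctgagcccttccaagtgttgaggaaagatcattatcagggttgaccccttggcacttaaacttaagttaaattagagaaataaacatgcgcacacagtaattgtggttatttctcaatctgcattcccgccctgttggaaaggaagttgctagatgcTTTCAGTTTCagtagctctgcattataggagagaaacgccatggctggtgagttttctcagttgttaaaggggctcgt
Casp12: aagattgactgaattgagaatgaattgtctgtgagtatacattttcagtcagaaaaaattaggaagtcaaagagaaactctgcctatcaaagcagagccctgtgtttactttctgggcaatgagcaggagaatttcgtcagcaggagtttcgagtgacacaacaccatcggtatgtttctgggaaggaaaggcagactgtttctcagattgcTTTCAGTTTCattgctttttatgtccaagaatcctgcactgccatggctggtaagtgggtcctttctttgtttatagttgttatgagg
The TTCNNNGAA letters were found in Casp12, 74 to 66 bases before the start, and in Nlrp3, 121 to 113 bases before the start, and in 8.87% of all promoters. The matches in Casp12 do not overlap each other. Neither set of letters was found in the windows of Ripk1 and Ripk3. These are matches of letters and not measured sites, and the windows are from another build than the rn6 genome used for the counts.

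The targeted genes and the makeup of the cultures were checked first. Yap1 ranged from 532 to 625 normalized counts with Yap siRNA and from 713 to 1474 in the double knockdown, against 2984 to 3776 with negative siRNA. Wwtr1 ranged from 524 to 637 with Wwtr1 siRNA and from 731 to 1056 in the double knockdown, against 2280 to 2565. All 11 fibroblast and all 10 cardiomyocyte markers were above 0 in every library. All 13 macrophage and all 9 endothelial markers were also present in the table, but the endothelial marker Emcn was at 0 in some libraries of every group. Double knockdown replicate 3 stood apart, with the highest Yap1 and Wwtr1 levels of its group and a summed macrophage marker level of 52069 normalized counts, against 7515 and 14951 in the other double knockdown libraries. Summed endothelial markers were 1815 to 2646 in the double knockdown against 1212 to 1554 with negative siRNA, and summed cardiomyocyte markers were 65621 to 86840 against 39230 to 66844. Their part in the results was not tested. Calls of members and of the pathway lists that changed without replicate 3 of the double knockdown are given both ways. In bulk RNA, fewer cells of a type and less RNA per cell cannot be told apart.

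Zbp1 was listed at 0 in every negative siRNA library and was above 0 in all 9 others. Its levels were 179, 153 and 37.7 normalized counts with Yap siRNA in replicates 1, 2 and 3. With Wwtr1 siRNA they were 196, 94.9 and 45.7, and in the double knockdown 237, 277 and 324. The double knockdown libraries were thus the 3 highest, and replicate 3 was the lowest of both single knockdowns. The group means were 123 ± 75.3 for Yap siRNA, 112 ± 76.7 for Wwtr1 siRNA and 279 ± 43.6 for the double knockdown (SD, n = 3 each).

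Zbp1 was called higher in all 3 comparisons with negative siRNA, with a limma adjusted p of 0.000271 for Yap siRNA, 0.000146 for Wwtr1 siRNA and 8.52e-06 for the double knockdown. No fold is given against a group at 0. These calls held whichever of the 12 libraries was left out. Every double knockdown library had more Zbp1 than every single knockdown library, by a log2 fold change of 1.44 over Yap siRNA (SE 0.60, 95% interval 0.14 to 2.74, limma adjusted p 0.132) and of 1.53 over Wwtr1 siRNA (SE 0.60, limma adjusted p 0.0913). Neither difference passed the threshold. Leaving out libraries moved that over Yap siRNA from 0.74 without Yap siRNA replicate 3 (limma adjusted p 0.437) to 1.85 without Yap siRNA replicate 1 (limma adjusted p 0.0938). The difference over Wwtr1 siRNA was 1.01 without Wwtr1 siRNA replicate 3 (limma adjusted p 0.317). It was called without Wwtr1 siRNA replicate 1 (2.05, limma adjusted p 0.0418) and, at 1.53, without Yap siRNA replicate 3 (limma adjusted p 0.0373). Between the single knockdowns the log2 difference was 0.09 (95% interval -1.20 to 1.39), with overlapping libraries.

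A zero across the control libraries was uncommon among the genes. Over the whole table, 71 genes were listed at 0 in all 3 negative siRNA libraries. Of these, 6 were above 0 in all 9 other libraries, and 4 of the 6 passed the filter: Zbp1, Oas1f, Tmprss2 and Gabre. The lowest Zbp1 level of the 9 libraries was 37.7 normalized counts. An exact 0 in such a table can be a failed estimate. In 6 cases a gene was at 0 in 1 library and over 100 in both others of its group, and Zbp1 was not such a case.

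The genes whose pattern was most like that of Zbp1 over the 12 libraries were sought by Pearson's r on the log2 scale among the 11870 other genes tested. The leading 5 were Oas1f (0.995) and Oasl (0.977) of the oligoadenylate synthetase family, the protease gene Tmprss2 (0.989), the lectin gene Lgals9 (0.978) and Ddx58 (0.977), which encodes the RNA sensor RIG-I. These r values describe libraries that share 4 treatments, and Oas1f and Tmprss2 were, like Zbp1, at 0 in every negative siRNA library. Over the 9 knockdown libraries alone the r values ran from 0.88 for Tmprss2 to 0.96 for Oasl. There Oasl ranked 7, Oas1f 53, Ddx58 94, Lgals9 175 and Tmprss2 226, so other genes were more like Zbp1. Among the other members the order depended on the libraries used. Over 12 libraries Ripk3 had the highest r (0.84), followed by Casp8 (0.64), and Nlrp3 had the lowest (-0.53). Over the 9 knockdown libraries Ripk1 had the highest (0.78), followed by Ripk3 (0.55), and Casp4 had the lowest (-0.31).

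The summed level of 29 interferon-induced genes, a list without Zbp1, moved with it. The sum was 20560, 29982 and 19317 normalized counts with negative siRNA, against 149201, 110433 and 66124 with Yap siRNA. Wwtr1 siRNA gave 189969, 136096 and 56065, and the double knockdown gave 249499, 253114 and 200938. Replicate 3 was the lowest of every group for this sum. Zbp1 was likewise lowest in replicate 3 of both single knockdowns, whereas in the double knockdown replicate 3 was its highest library. In the 3 comparisons with negative siRNA 28, 27 and 29 of the 29 genes were called higher, with median log2 fold changes of 3.17, 3.62 and 5.15, where 4.80%, 8.96% and 32.8% of all genes tested were called in either direction. The part of these genes in the Zbp1 result was not tested.

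**Figure D1:**
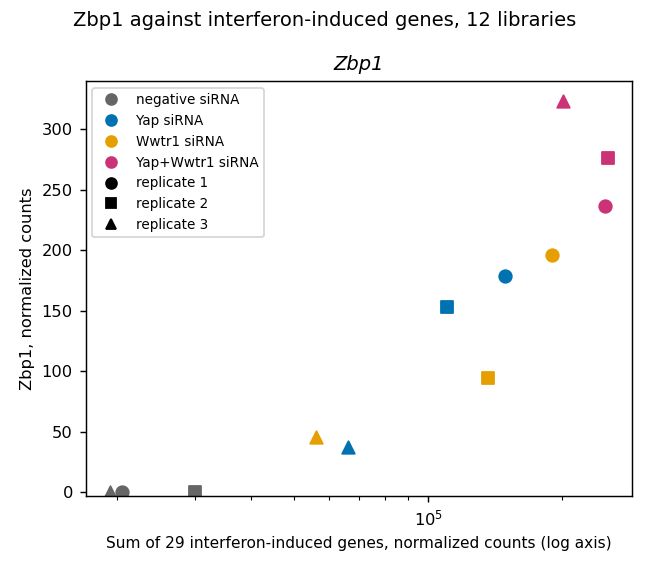
Zbp1 in normalized counts (vertical) is plotted against the summed normalized counts of 29 interferon-induced genes (horizontal, log axis) for each of the 12 libraries, with colours for siRNA groups and symbols for replicate numbers. The 3 negative siRNA libraries sit at 0, and the 3 double knockdown libraries sit at 237 to 324 to the right of all others.

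The interaction was tested to ask whether the double knockdown effect differed from the sum of the single effects on the log2 scale. Zbp1 was the only one of 9 members called (limma adjusted p 0.0192), where 1.03% of all genes tested were called. The sum of the log2 effects starts from a control level of 0, so the size of this interaction is set by the pseudocount and no direction is read from it. With a pseudocount of 10 the call was lost (limma adjusted p 0.210), and it was also lost without Wwtr1 siRNA replicate 2 (limma adjusted p 0.0588).

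The RIP kinases were examined next. Ripk3, the kinase that Zbp1 binds, was 905, 795 and 823 normalized counts with negative siRNA. Yap siRNA libraries had 1037, 941 and 984, Wwtr1 siRNA libraries had 1099, 1013 and 1041, and the double knockdown had 998, 1225 and 1208. Every knockdown library was thus above every negative siRNA library. Ripk3 rose in the double knockdown by a log2 fold change of 0.44 (SE 0.10, 95% interval 0.23 to 0.65, limma adjusted p 0.00439), and this call held whichever of the 12 libraries was left out.

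The Ripk3 differences of the single knockdowns were 0.23 for Yap siRNA (SE 0.10, limma adjusted p 0.202) and 0.32 for Wwtr1 siRNA (SE 0.10, limma adjusted p 0.0567). A replicate block, which pairs same-numbered libraries, did not call the latter over all 12 libraries (limma adjusted p 0.0683). It was called when the double knockdown libraries were left out of the fit, with the block (limma adjusted p 0.00988) and without it (limma adjusted p 0.0337). It was also called with a minimum mean of 100 normalized counts (limma adjusted p 0.0495) and without double knockdown replicate 1 or 3 (limma adjusted p 0.0307 and 0.0477). The double knockdown did not pass the threshold against Yap siRNA (log2 0.21, 95% interval -0.0012 to 0.41) or Wwtr1 siRNA (0.12, 95% interval -0.09 to 0.32).

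Ripk1, the partner kinase that also serves TNF receptor signalling, had its highest levels in the double knockdown. It was 1978, 2189 and 1991 normalized counts with negative siRNA. Yap siRNA libraries had 2083, 2156 and 2024, and Wwtr1 siRNA libraries had 2110, 1903 and 1984. In the double knockdown it was 2336, 2218 and 2343, above every library of the other groups. The double knockdown difference from negative siRNA was 0.16 on the log2 scale (SE 0.07, 95% interval 0.016 to 0.31, limma adjusted p 0.0852) and that from Wwtr1 siRNA was 0.20 (SE 0.07, limma adjusted p 0.0558). Neither was called, although the second was with a minimum mean of 100 (limma adjusted p 0.0493) or without Wwtr1 siRNA replicate 1 (0.24, limma adjusted p 0.0491).

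Casp8, the protease of death receptor signalling that restrains Ripk1 and Ripk3, rose in the double knockdown. It was 232, 241 and 238 normalized counts with negative siRNA, against 277, 263 and 272 with Yap siRNA. With Wwtr1 siRNA it was 320, 271 and 338, and in the double knockdown it was 463, 386 and 274. Every knockdown library was above every negative siRNA library, and the double knockdown libraries varied most (SD 95.4 against 4.56 with negative siRNA). The double knockdown log2 fold change was 0.63 (SE 0.17, 95% interval 0.25 to 1.00, limma adjusted p 0.0156). This call depended on single libraries: it was 0.46 without double knockdown replicate 1 (limma adjusted p 0.0625) and 0.59 without replicate 2 (limma adjusted p 0.0511), neither of them called.

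Without double knockdown replicate 3 the Casp8 fold change was 0.83 (limma adjusted p 0.000964), and then the double knockdown was also called higher than Yap siRNA (0.64, limma adjusted p 0.0109) and Wwtr1 siRNA (0.45, limma adjusted p 0.0423). With all libraries these differences were 0.43 (SE 0.17, limma adjusted p 0.117) and 0.24 (SE 0.17, limma adjusted p 0.349). The single knockdowns differed from negative siRNA by 0.19 with Yap siRNA (limma adjusted p 0.590) and 0.38 with Wwtr1 siRNA (limma adjusted p 0.202), without a call. When only the 6 libraries compared were fitted, the double knockdown call was lost (limma adjusted p 0.0597).

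The inflammatory caspases Casp1, Casp4 and Casp12 are neighbouring, related genes, so reads could be divided between them and single values are uncertain. Casp4, the caspase that binds bacterial lipopolysaccharide, was 2697, 2606 and 2930 normalized counts with negative siRNA, against 3108, 2701 and 2748 with Yap siRNA. With Wwtr1 siRNA it was 3533, 3344 and 3218, the 3 highest of all libraries, and in the double knockdown it was 2482, 2436 and 2813. Casp4 therefore stood out with Wwtr1 siRNA alone and not with both siRNAs. It rose by 0.29 with Wwtr1 siRNA (SE 0.08, limma adjusted p 0.0443). Leaving out each of the 12 libraries in turn ended the call 10 times, and the log2 fold change ran from 0.26 to 0.34 and the adjusted p from 0.0262 to 0.154, and was kept only without Yap siRNA replicate 1 or double knockdown replicate 3.

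Casp4 was lower in the double knockdown than with Wwtr1 siRNA by a log2 fold change of -0.39 (SE 0.08, 95% interval -0.57 to -0.21, limma adjusted p 0.00713), and this call also held whichever library was left out. It differed from negative siRNA by -0.09 (SE 0.08, 95% interval -0.27 to 0.087, limma adjusted p 0.421). Yap siRNA libraries were all below Wwtr1 siRNA libraries (-0.24, SE 0.08, limma adjusted p 0.0941), a difference that was called when the replicate block was used and the double knockdown libraries were left out (limma adjusted p 0.0294), but with neither step alone (limma adjusted p 0.0800 and 0.0768). The interaction of Casp4 was -0.44 (SE 0.12, unadjusted p 0.00253), which did not pass after adjustment (limma adjusted p 0.0983).

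Casp12, an inflammatory caspase linked to stress of the endoplasmic reticulum, had its 2 highest levels with Wwtr1 siRNA. It was 1701, 1586 and 1763 normalized counts with negative siRNA, against 1737, 1581 and 1475 with Yap siRNA. With Wwtr1 siRNA it was 2243, 2256 and 1766, and in the double knockdown 1767, 1739 and 1744. The Wwtr1 siRNA difference from negative siRNA was 0.30 (SE 0.10, limma adjusted p 0.0820). It was called with the replicate block and no double knockdown libraries (limma adjusted p 0.0359), but with neither step alone (limma adjusted p 0.0672 and 0.0950). It was also called without Wwtr1 siRNA replicate 3 (0.42, limma adjusted p 0.0155). Casp12 was lower with Yap siRNA than with Wwtr1 siRNA in every library, by a log2 fold change of -0.38 (SE 0.10, 95% interval -0.60 to -0.16, limma adjusted p 0.0358).

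That Casp12 call was lost without negative siRNA replicate 1 (limma adjusted p 0.0514), Yap siRNA replicate 2 or 3 (0.0941 and 0.104) or Wwtr1 siRNA replicate 1 or 2 (0.115 and 0.140). It was also lost when only the 6 libraries compared were fitted (limma adjusted p 0.0790). The double knockdown libraries of Casp12 were the closest of any group (SD 14.9) and differed from negative siRNA by 0.06 (SE 0.10, 95% interval -0.16 to 0.27). Their difference from Wwtr1 siRNA was -0.25 (SE 0.10, limma adjusted p 0.103), and it was called without Wwtr1 siRNA replicate 3 (-0.36, limma adjusted p 0.0224).

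Gsdmd, which encodes the pore-forming executor of pyroptosis, was among the steadiest of the members. It was 2878, 2959 and 3133 normalized counts with negative siRNA. Yap siRNA libraries had 3187, 2845 and 2873, and Wwtr1 siRNA libraries had 3070, 2973 and 2844. In the double knockdown it was 3015, 2925 and 2489. The highest of the 12 libraries was 1.28 times the lowest, and the groups overlapped in every comparison. The double knockdown difference from negative siRNA was -0.09 (SE 0.08, 95% interval -0.27 to 0.085, limma adjusted p 0.411), and it was -0.0088 without replicate 3 (limma adjusted p 0.940). Those of the single knockdowns were -0.01 each, with intervals of -0.19 to 0.17 for Yap siRNA and -0.19 to 0.16 for Wwtr1 siRNA.

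Nlrp3, the sensor of the best-known inflammasome, was listed lower in most knockdown libraries. It was 258, 203 and 224 normalized counts with negative siRNA, against 193, 171 and 135 with Yap siRNA. With Wwtr1 siRNA it was 79.3, 136 and 156, and in the double knockdown 50.7, 56.0 and 278. Every single knockdown library was below every negative siRNA library. In the double knockdown the first 2 libraries were the lowest of the 12 and replicate 3 was the highest.

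No Nlrp3 difference passed the threshold with all libraries. The log2 fold change was -0.46 with Yap siRNA (SE 0.52, limma adjusted p 0.678), -0.93 for Wwtr1 siRNA (SE 0.52, limma adjusted p 0.308) and -1.28 after double knockdown (SE 0.52, 95% interval -2.41 to -0.15, limma adjusted p 0.0775). Without double knockdown replicate 3 the double knockdown value was -2.07 and was called (limma adjusted p 0.000268). It was then also called lower than Yap siRNA (-1.61, limma adjusted p 0.00350) and Wwtr1 siRNA (-1.14, limma adjusted p 0.0160). The Wwtr1 siRNA difference of Nlrp3 was called in that fit (limma adjusted p 0.0337). It was also called with all double knockdown libraries left out, without a replicate block (limma adjusted p 0.0389) and with one (limma adjusted p 0.0255), but not with the block over all 12 libraries (limma adjusted p 0.274).

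Casp1, the protease activated by Nlrp3, varied between replicates in every group. It was 130, 170 and 101 normalized counts with negative siRNA, against 143, 119 and 92.2 with Yap siRNA. With Wwtr1 siRNA it was 85.6, 130 and 65.0, and in the double knockdown 68.6, 78.6 and 287. As for Nlrp3, double knockdown replicate 3 was the highest of all 12 libraries. The double knockdown difference was -0.17 (SE 0.47, 95% interval -1.20 to 0.85, limma adjusted p 0.807), and without replicate 3 it was -0.83 (limma adjusted p 0.0678). The single knockdowns differed from negative siRNA by -0.17 with Yap siRNA and -0.54 with Wwtr1 siRNA (SE 0.47 each, limma adjusted p 0.891 and 0.531).

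Macrophage markers were set beside Nlrp3 and Casp1, both of which are expressed by macrophages. The summed level of the 13 markers was 34521, 27026 and 24009 normalized counts with negative siRNA, against 30172, 24363 and 20429 with Yap siRNA. Wwtr1 siRNA libraries had 12649, 21163 and 18580, and double knockdown libraries had 7515, 14951 and 52069. The lowest sum and the lowest Nlrp3 level were both in double knockdown replicate 1, and the highest of each was in replicate 3. Casp1 was also highest there, whereas its lowest library was Wwtr1 siRNA replicate 3, and with negative siRNA its highest was replicate 2 while the sum was highest in replicate 1. In the double knockdown limma called 1 of the 13 markers lower with all libraries and 12 of 13 without replicate 3 (median log2 fold change -1.57; 34.2% of all genes called), the fit in which Nlrp3 and Il18 were also called lower. All 13 markers were above 0 in every library with the exception of Cx3cr1, a chemokine receptor, which was at 0 in double knockdown replicate 1. Their part in the Nlrp3 and Casp1 values was not tested.

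**Figure D2:**
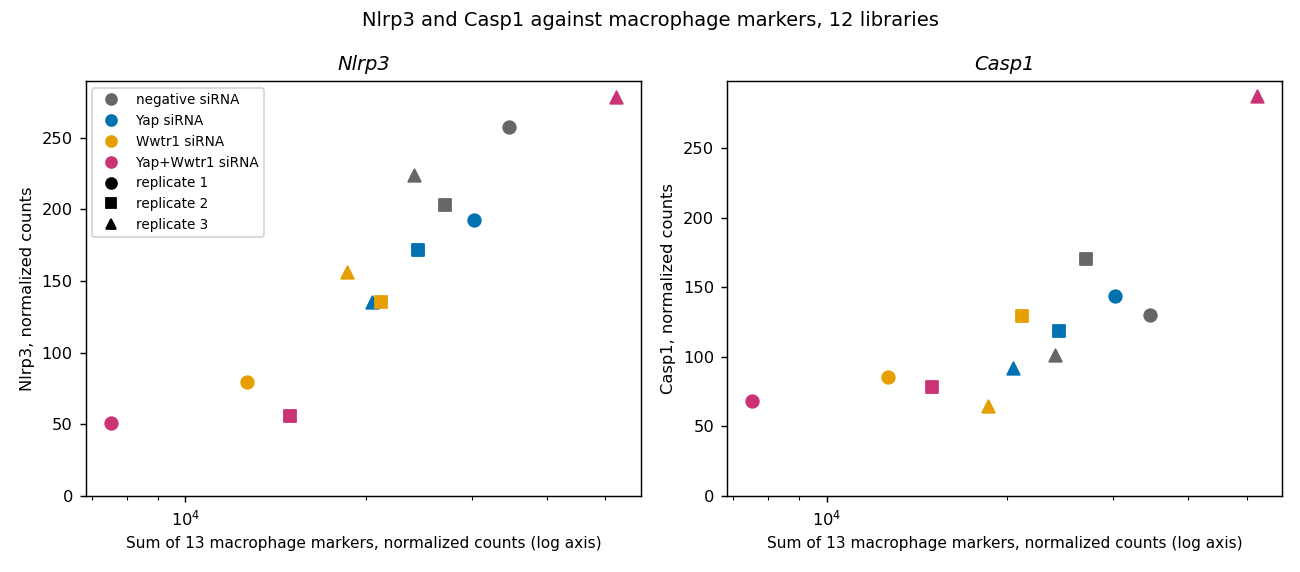
Nlrp3 (left) and Casp1 (right) in normalized counts are plotted against the summed normalized counts of 13 macrophage markers (horizontal, log axis) in the 12 libraries, with colours for siRNA groups and symbols for replicate numbers. Double knockdown replicate 3 lies at the upper right of both panels, with Nlrp3 at 278, Casp1 at 287 and a marker sum of 52069.

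**Figure D3:**
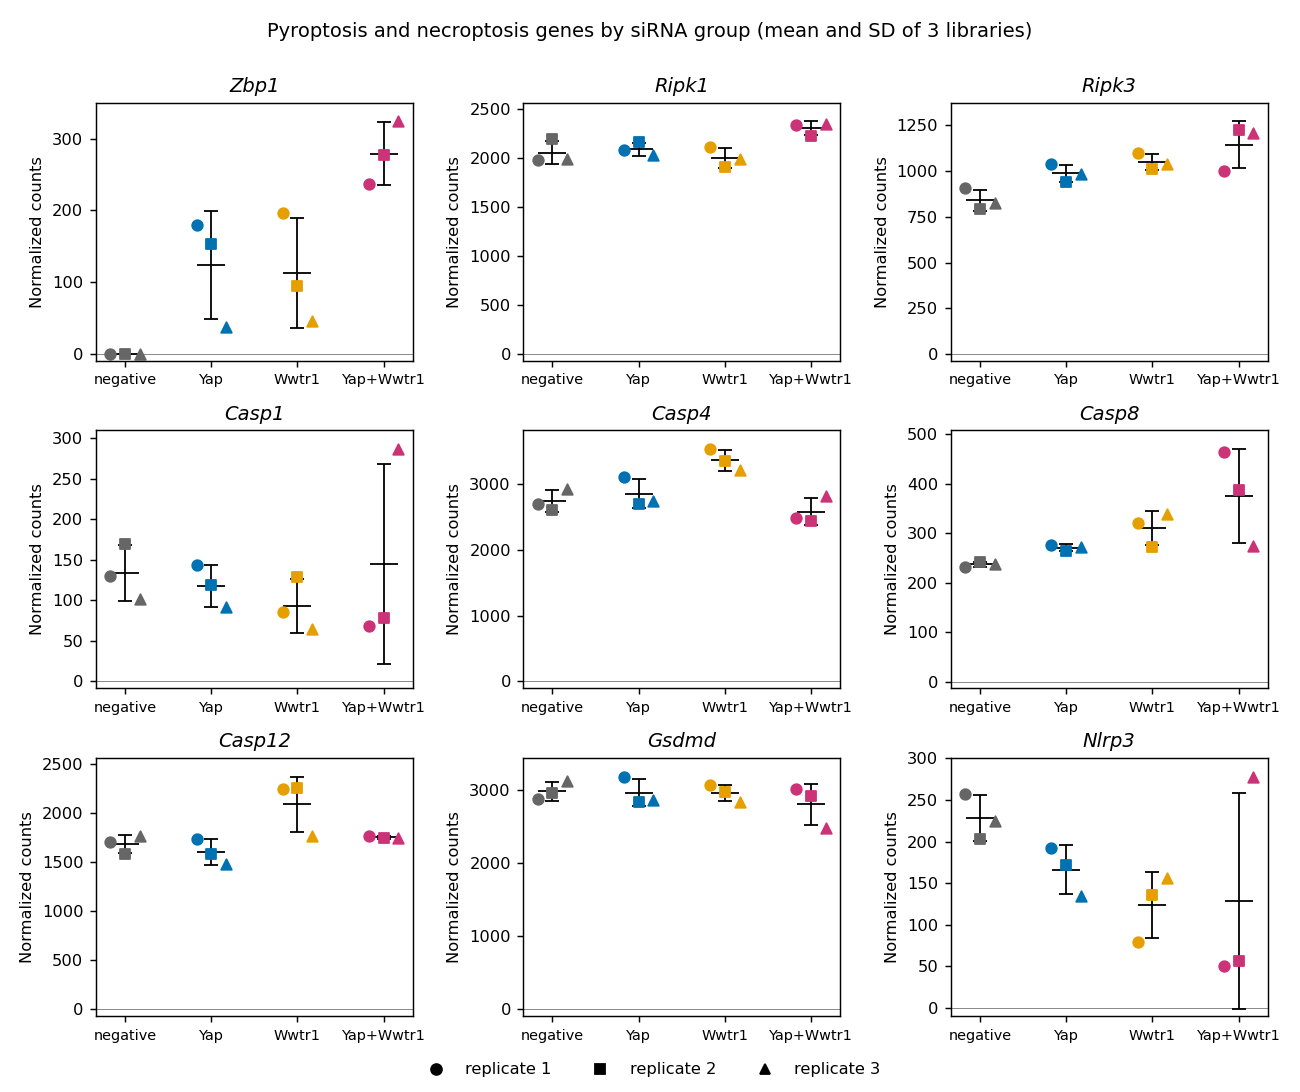
Normalized counts (vertical axis, from 0) of the 9 genes are shown for each library by siRNA group, with symbols for replicate numbers and black bars for the mean and SD of 3 libraries. Zbp1 lies at 0 with negative siRNA and highest in the double knockdown, Gsdmd varies within 1.28-fold over the 12 libraries, and replicate 3 of the double knockdown lies apart in Casp1 and Nlrp3.

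Counted over the 9 members, Yap siRNA changed 1 (Zbp1) and Wwtr1 siRNA changed 2 (Zbp1 and Casp4), where 4.80% and 8.96% of all genes tested were called. The double knockdown changed 3 (Zbp1, Ripk3 and Casp8), where 32.8% of all genes were called, so that the share of members was near the background. All of these members were higher. These counts come from the fit that does not pair replicates. A replicate block on all 12 libraries changed no member's call. With the block and no double knockdown libraries, Wwtr1 siRNA changed 5, adding Ripk3 and Casp12 (higher) and Nlrp3 (lower). In that fit 2559 of 11795 genes were called. Leaving out those libraries without a block gave 4, adding Ripk3 and Nlrp3. Libraries did not overlap with negative siRNA for 4 members with Yap siRNA (3 higher, 1 lower; background 26.1%), for 6 with Wwtr1 siRNA (5 higher, 1 lower; background 32.7%) and for 4 in the double knockdown (4 higher; background 44.6%).

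For the 8 members other than Zbp1 the median log2 fold change against negative siRNA was 0.01 for Yap siRNA, 0.14 for Wwtr1 siRNA and -0.02 for the double knockdown. The median over all genes tested was between -0.0041 and 0.0047 in these comparisons. Between knockdown groups, limma called 0 members for the double knockdown against Yap siRNA, where 13.8% of genes were called and 2 members (Zbp1 and Casp8) had an unadjusted p under 0.05. It called 1 member, Casp4, for the double knockdown against Wwtr1 siRNA (background 19.9%) and 1, Casp12, for Yap against Wwtr1 siRNA (background 8.79%). Libraries did not overlap for 3 members between the double knockdown and Yap siRNA (3 higher; background 30.5%), for 3 between the double knockdown and Wwtr1 siRNA (2 higher, 1 lower; background 37.3%) and for 2 between Yap and Wwtr1 siRNA (2 lower; background 31.9%). The comparisons with negative siRNA share their control libraries and are not independent of each other.

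**Figure D4:**
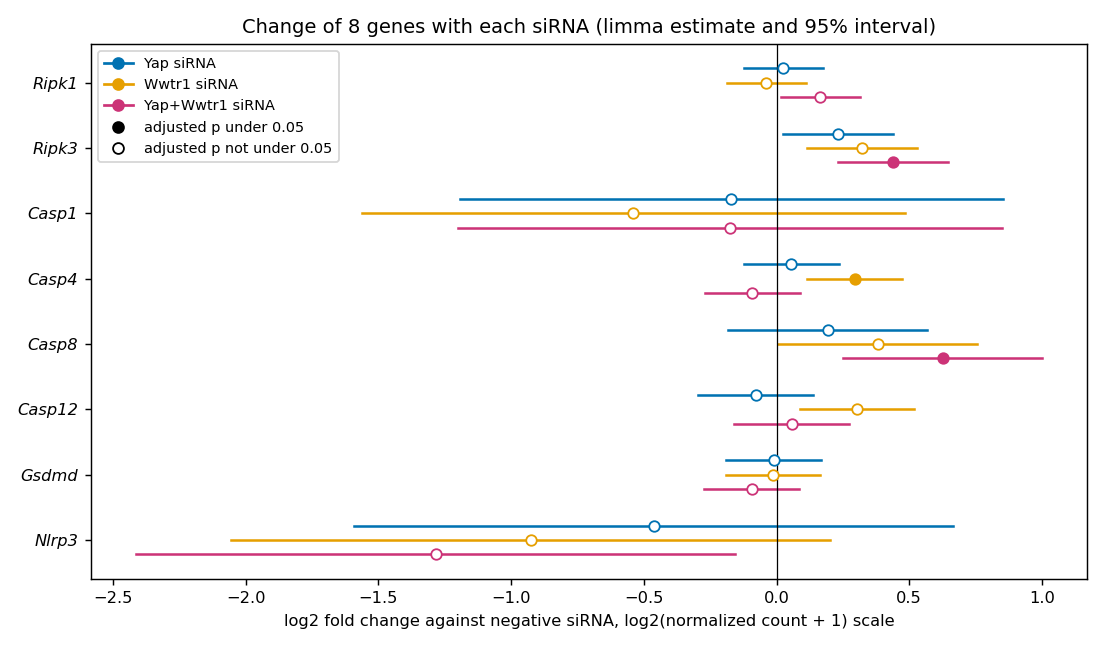
Log2 fold changes against negative siRNA (horizontal, log2 of normalized count + 1) of the 8 members other than Zbp1 are shown as circles with 95% intervals from limma, coloured by siRNA, and filled circles have an adjusted p under 0.05. The filled circles are Casp4 with Wwtr1 siRNA (0.29) and Ripk3 (0.44) and Casp8 (0.63) in the double knockdown, and the widest intervals belong to Nlrp3 and Casp1.

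Other genes of inflammasomes and pyroptosis were read from a list of 21, of which 15 were in the table and 14 were tested. The double knockdown had 2 called higher and 3 lower, a share near the 32.8% of all genes tested that were called. The list median was -0.24. Nlrp1a, a further inflammasome sensor, was 606, 582 and 577 normalized counts with negative siRNA, compared with 909, 935 and 925 in the double knockdown (log2 0.65, SE 0.14, limma adjusted p 0.00347). Card9, an adaptor of innate immune signalling, was 331, 332 and 340 against 180, 211 and 264 (-0.63, SE 0.16, limma adjusted p 0.0115). Brcc3, a deubiquitinase that acts on Nlrp3, was 1096, 1078 and 1126 against 693, 661 and 887 (-0.57, SE 0.11, limma adjusted p 0.00186). In these 3 genes the double knockdown and negative siRNA libraries did not overlap, as in 44.6% of all genes tested. The 3 were named for the size of their called change in this comparison, so this is no separate support.

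The remaining calls of that list in the double knockdown were Ninj1, which ruptures the membrane at the end of lytic death (log2 0.38), and Nek7, a partner of Nlrp3 (-0.40). Without double knockdown replicate 3 the call of Nek7 was lost (-0.26, limma adjusted p 0.109), and Ninj1 was 0.55 (limma adjusted p 0.00128). With Yap siRNA 1 gene of the list was called, Nlrp1a (0.52, limma adjusted p 0.0495), where 4.80% of all genes tested were called. With Wwtr1 siRNA, where 8.96% of all genes were called, 1 was called, Brcc3, which was 648, 610 and 600 normalized counts (-0.83, limma adjusted p 0.00107). Brcc3 was 1102, 1091 and 1209 with Yap siRNA, so its low levels were found in both groups that received Wwtr1 siRNA.

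Interleukins released through pyroptosis, named after their values were seen, were not called in any comparison with negative siRNA when all libraries were used. Il18 was 131, 111 and 123 normalized counts with negative siRNA. Wwtr1 siRNA libraries had 41.7, 62.2 and 70.1 and the double knockdown had 35.8, 36.0 and 217. Without double knockdown replicate 3 Il18 was called lower in the double knockdown (log2 -1.73, limma adjusted p 0.00167). Il1b was 35.9, 17.0 and 57.9 with negative siRNA and 0, 16.7 and 74.6 in the double knockdown. Wwtr1 siRNA libraries had 0, 0 and 107, the last of which was the highest of the 12. In both genes double knockdown replicate 3 was the highest of its group, as it was for Nlrp3, Casp1 and the macrophage markers. Pycard, the adaptor between sensor and Casp1, was 274, 188 and 233 with negative siRNA and 230, 261 and 312 in the double knockdown (log2 0.21, SE 0.22, limma adjusted p 0.494).

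Other genes of the RIP kinase and TNF receptor complex came from a list of 34, of which 30 were in the table and 29 were tested. Of these, 10 were called higher and 3 lower in the double knockdown, where 32.8% of all genes tested were called. The list median was 0.13. Birc3, a ubiquitin ligase that restrains Ripk1, was 227, 315 and 283 normalized counts with negative siRNA, compared with 554, 571 and 497 in the double knockdown (log2 0.98, SE 0.23, limma adjusted p 0.00599). Tlr3, a receptor for double-stranded RNA that can engage Ripk3, was 628, 586 and 646 against 1178, 1103 and 1222 (0.91, SE 0.13, limma adjusted p 0.000365). Rnf31, the catalytic subunit of the linear ubiquitin ligase, was 1117, 1144 and 1109 against 1757, 2117 and 1561 (0.68, SE 0.12, limma adjusted p 0.00127). The libraries of these 3 genes did not overlap between the groups (background 44.6%), but they too were named for their called change in this comparison.

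Rnf31 was also called higher with Yap siRNA and Pgam5, a mitochondrial phosphatase, lower, where 4.80% of all genes tested were called. With Wwtr1 siRNA, where 8.96% of all genes were called, limma called 0 of the 29 (4 had an unadjusted p under 0.05). The list medians of the single knockdowns were 0.02 and 0.05. The other genes called in the double knockdown were Tnip1, Tnfrsf1a, Birc2, Otulin, Rbck1, Mapkapk2 and Cflar, which were higher, and Pgam5, Chuk and Stub1, which were lower. Tnfrsf1a, the main TNF receptor, was 10657, 9342 and 9166 normalized counts with negative siRNA, compared with 14726, 14463 and 14401 in the double knockdown. Cflar, the inhibitory partner of Casp8, was 1361, 1487 and 1537 against 1977, 1700 and 1718. Without double knockdown replicate 3 the call of Birc2 was lost (0.35, limma adjusted p 0.0654), and that of Traf2, an adaptor of the TNF receptor, was gained (0.39, limma adjusted p 0.0394). Fadd, the adaptor between death receptors and Casp8, was 226, 244 and 272 against 296, 231 and 264, with overlapping libraries (log2 0.09, limma adjusted p 0.645).

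Apoptosis genes were all measured, 21 of 21. In the double knockdown 5 were called higher and 2 lower, with a list median of -0.02. Limma called 0 in either single knockdown, where 4.80% of all genes were called with Yap siRNA and 8.96% with Wwtr1 siRNA. At an unadjusted limma p under 0.05 there were 4 with Yap siRNA and 2 with Wwtr1 siRNA. Bcl2l11, which encodes the killer protein Bim, was 491, 620 and 441 normalized counts with negative siRNA, compared with 1022, 1082 and 1545 in the double knockdown (log2 1.22, SE 0.22, limma adjusted p 0.00151). Casp6, an executioner caspase, was 452, 365 and 405 against 633, 673 and 552 (0.60, SE 0.12, limma adjusted p 0.00282). Bok, a Bcl2 family effector, was 1277, 1445 and 1153 against 1877, 1916 and 1812 (0.54, SE 0.14, limma adjusted p 0.0116). The genes called lower were Bcl2l1, which protects from death, and Bax, which promotes it. Without double knockdown replicate 3 the counts were also 5 and 2, with Bad, which promotes death, gained (0.25, limma adjusted p 0.0263), and Bcl2l11 was 1.04 (limma adjusted p 0.00423). These shares of called genes stand beside the 32.8% of all genes called in the double knockdown.

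**Figure D5:**
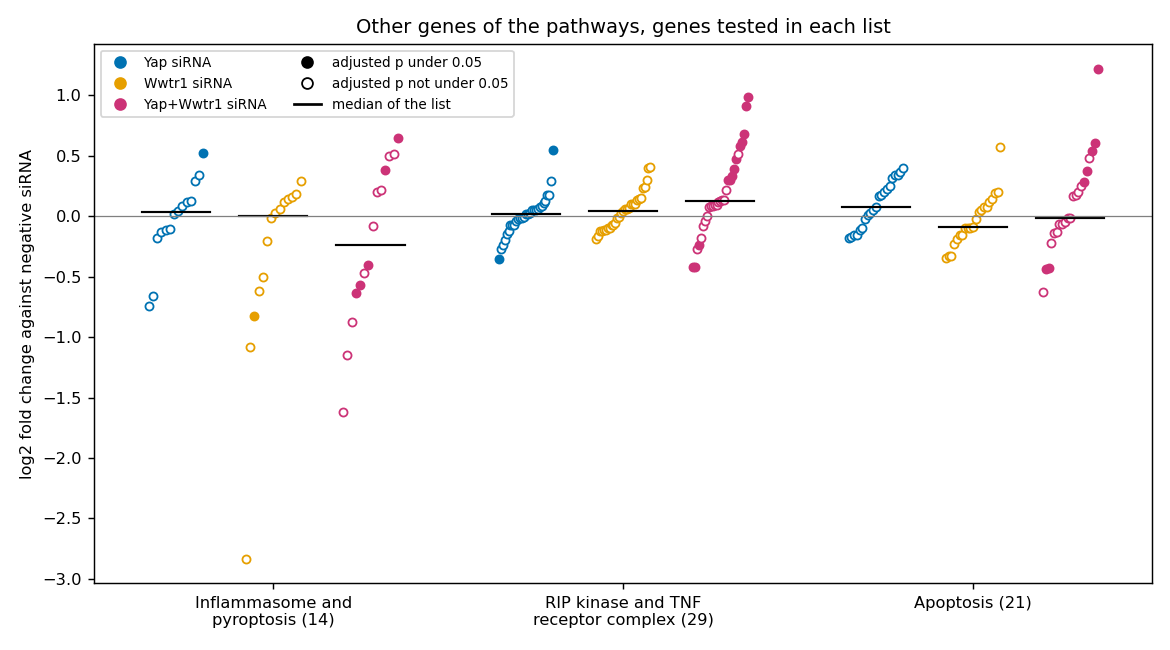
Log2 fold changes against negative siRNA (vertical axis) are plotted for each tested gene of the inflammasome and pyroptosis list (14), the RIP kinase and TNF receptor complex list (29) and the apoptosis list (21), coloured by siRNA, with filled circles for an adjusted p under 0.05 and a black line at each list's median. Most filled circles belong to the double knockdown, where the medians are -0.24, 0.13 and -0.02.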

How the data were processed

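RNA was sequenced from 12 libraries of rat cardiac fibroblasts, 3 for each of 4 siRNA groups, taken from the titles. The authors trimmed reads (Trim Galore 0.6.5), aligned them to rn6 with HISAT2, estimated abundance with StringTie and normalized with DESeq2. The signal values deposited by the authors are counts after that normalization. All 147252 values were whole multiples of 1 step per library (tolerance 0.01), with totals of 33.9 to 41.1 M steps, and whether a step is a read is not known. Tables of the authors' own comparisons (log2 fold changes, p-values) were not used.

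Each contrast was tested with limma 3.58.1 (R 4.3.3; lmFit, eBayes with trend) on log2(normalized count + 1), for genes with a mean of at least 10, all 12 libraries in 1 fit, with Benjamini-Hochberg adjustment over 11871 genes, two-sided, threshold 0.05. The steps were tested on simulated data. No pair of replicates held identical values. The other genes named were the up to 3 called with the largest double knockdown change in each list, and the 5 most like Zbp1 over the 12 libraries. Further names were chosen after their values were seen. Some genes counted in the lists are not reported here by name. The members and lists were chosen with earlier results of these data known.

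Same-numbered libraries were compared by the correlation of their deviations from group means over all genes tested. It was 0.104 to 0.276 for the 9 pairs among negative, Yap and Wwtr1 siRNA, whose numbers were taken to pair libraries. For the 9 pairs with the double knockdown, which was not paired, it was -0.127 to 0.180. Over the genes of highest mean alone these ranges were 0.088 to 0.733 and -0.259 to 0.209. The main fit did not use this pairing, which entered only through the replicate blocks below. Alternatives were other pseudocounts (0.1 and 10), filters, TMM scaling, fits of the compared groups, replicate blocks (on all libraries, and on those of the 3 paired groups alone) and leaving out each library. A fit of those 3 groups without a block was added after the data were seen.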

Additional observations from a re-analysis of the deposited data

Results flagged for a closer look

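The calls of Yap against Wwtr1 siRNA and of the interaction were taken for this, which gave 2 results. Casp4 was also called for the double knockdown against Wwtr1 siRNA (log2 -0.39, limma adjusted p 0.00713), a comparison outside this choice. Casp12 was lower with Yap siRNA than with Wwtr1 siRNA, with a log2 fold change of -0.38 (limma adjusted p 0.0358). Leaving out each library in turn ended this call 5 of 12 times, with an adjusted p of up to 0.140, and fitting only the groups compared ended it too (limma adjusted p 0.0790). Zbp1 had an interaction, with a limma adjusted p of 0.0192. The control level of Zbp1 was 0, so the pseudocount sets the size of this value and no direction is read from it. The call was lost with a pseudocount of 10 (limma adjusted p 0.210) and without Wwtr1 siRNA replicate 2 (limma adjusted p 0.0588).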

How the results depend on the processing

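Over the alternatives, 1165 of the values and tests of single members kept their direction and their side of the threshold, 21 passed it where the reported value did not, and 21 no longer passed it. The sign changed in 35, of which 0 were called by limma in either fit. The double knockdown against Yap siRNA gave 0.011 for Casp1 with a pseudocount of 10, and Yap against Wwtr1 siRNA gave -0.0025 for Gsdmd with TMM scaling. Leaving out each library in turn, the sign also changed for the log2 values that follow. With Yap siRNA, Casp1 ranged from -0.35 to 0.017, Casp4 from -0.0086 to 0.10, Gsdmd from -0.064 to 0.023 and Ripk1 from -0.00054 to 0.072. With Wwtr1 siRNA, Gsdmd ranged from -0.040 to 0.021 and Ripk1 from -0.078 to 0.0091. In the double knockdown, Casp1 ranged from -0.83 to 0.20. For the double knockdown against Yap siRNA, Casp1 ranged from -0.66 to 0.37 and Gsdmd from -0.14 to 0.0025. For the double knockdown against Wwtr1 siRNA, Casp1 ranged from -0.29 to 0.74, Gsdmd from -0.13 to 0.0044 and Nlrp3 from -1.14 to 0.072. For Yap against Wwtr1 siRNA, Gsdmd ranged from -0.050 to 0.031 and Zbp1 from -0.42 to 0.80. For the interaction, Casp1 ranged from -0.12 to 0.91, Casp8 from -0.12 to 0.26, Gsdmd from -0.12 to 0.016 and Nlrp3 from -0.68 to 0.53. The number of members called with Wwtr1 siRNA was 5 in place of 2 when the double knockdown libraries were left out and a replicate block was put on the rest, which added Ripk3, Casp12 and Nlrp3, and Yap against Wwtr1 siRNA then gave 2 in place of 1, adding Casp4. Leaving out those libraries without a block, an alternative chosen after seeing the data, gave 4 with Wwtr1 siRNA, adding Ripk3 and Nlrp3. The replicate block on all 12 libraries changed no member's call. Yap against Wwtr1 siRNA gave 0 when only those groups were fitted, the double knockdown against Wwtr1 siRNA gave 2 with a minimum mean of 100, and the interaction gave 0 with a pseudocount of 10. With 1 library left out at a time, the members called ranged from 1 to 1 with Yap siRNA, 1 to 4 with Wwtr1 siRNA and 2 to 4 in the double knockdown; between knockdowns they ranged from 0 to 2 against Yap siRNA, 1 to 3 against Wwtr1 siRNA and 0 to 1 for Yap against Wwtr1 siRNA, and for the interaction from 0 to 1. Over all genes, Yap siRNA called 570, 874 with the block on all libraries and 1917 with the block on the 3 groups, and 111 to 766 without single libraries. Wwtr1 siRNA called 1064, 2559 with the block on the 3 groups, and 548 to 1420. The double knockdown called 3888 and 2746 to 4051. The double knockdown against Yap siRNA called 1637, 769 when only those groups were fitted, and 751 to 1870, and against Wwtr1 siRNA 2359 and 1292 to 2340. Yap against Wwtr1 siRNA called 1044, 2711 with the block on the 3 groups, and 434 to 1413, and the interaction 122, 231 with the block on all libraries, and 31 to 160. The causes were not tested. Planned edgeR and DESeq2 tests on whole reads were not run, because the deposited values could not be taken as reads in every library. With 3 libraries a group, Nlrp3 and Casp1 had the widest intervals of the 8 members other than Zbp1, whose own were wider still between knockdowns.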
